A study of Mus musculus with 6 samples.

Results

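Molecular chaperone genes were followed in EL4, a line of mouse T lymphoma cells, with and without RGFP966, which inhibits the histone deacetylase HDAC3. Members were taken by symbol: HSP genes (Hspa, Hspb, Hspd, Hspe, Hsph and Hsp90 names), heat shock factors (Hsf), J-domain genes (Dnaja, Dnajb and Dnajc) and chaperonin subunits (Cct2 to Cct8). The rule took 89 of the 51912 gene IDs in the count table, and 3 further symbols marked as pseudogenes were left out. It counts by name, so it also holds a few genes whose products are not chaperones, such as Hspb11, an intraflagellar transport gene, and it misses Tcp1, the remaining CCT subunit gene, which is given beside the others. The study sequenced RNA from 6 libraries of wild-type EL4 cells, 3 given vehicle and 3 given RGFP966 at 10 µM, with both agents added to the medium 24 h in advance. EL4 is a single transformed line, and the labels give no culture of origin for a library, so p-values measure the spread between these libraries, which may be technical. The extraction text of the labels speaks of retinas, but the retina markers Crx and Gnat1 had 0 counts in all libraries, and the 8 retina markers together held 4.34 to 4.76 CPM (CPM, the read count as a rate of the library total after scaling). The 12 T cell markers held 2582 to 2608 CPM in vehicle and 2700 to 2742 CPM in RGFP966 libraries. Most of that was Thy1 and Ptprc, with means of 918.7 and 701.5 CPM, while Cd2 averaged 9.81 CPM and Trbc1 0.111 CPM. The 5 fibroblast markers held 44.1 to 45.1 and 54.2 to 56.6 CPM, nearly all of it Pdgfra, with Col3a1 at 0, and the 5 myeloid markers held at most 13.8 CPM (Adgre1 at 0). Their part in the results was not tested. In bulk libraries, fewer cells carrying a transcript and less transcript per cell cannot be told apart.

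Chaperones bind unfolded or partly folded proteins and let them fold, refold or be handed to degradation. HSP70 proteins bind short hydrophobic stretches in a cycle driven by ATP, J-domain proteins bring the client and trigger hydrolysis, and nucleotide exchange factors, among them the HSP110 proteins, let the client go. HSP90 takes over clients that are nearly folded, many of them kinases, steroid receptors and transcription factors, including signalling proteins of lymphocytes. Chaperonins enclose a client in a chamber: the CCT ring (also called TRiC) folds actin, tubulin and WD40 proteins in the cytosol, and HSP60 with its lid HSP10 acts in mitochondria. Many of these genes are induced by heat shock factor 1, which binds inverted repeats of GAA, the heat shock element.

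Library totals ran from 12935443 to 16451017 counts, and those of the RGFP966 libraries were all lower than those of the vehicle libraries. Of the 89 members, 68 passed the filter on low counts and were tested, and 21 did not. The members took 2.09%, 2.125% and 2.11% of all counts in vehicle libraries 1 to 3 and 2.16%, 2.21% and 2.13% in RGFP966 libraries 1 to 3, so the groups nearly touched. Summed as scaled CPM, the members measured 20942, 21409 and 21305 in vehicle and 21492, 22119 and 21083 with RGFP966, which overlap. Over all 13484 genes tested by edgeR, 23.3% were called at an adjusted p under 0.05 (Benjamini-Hochberg), 11.4% higher and 11.9% lower with RGFP966.

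Chaperone genes moved in both directions and by small amounts. The cytosolic HSP90 genes Hsp90aa1 and Hsp90ab1 rose, together with Hspa2, Hspa13, Hspa14, Hsf2, Dnajb2 and Dnajc12. The constitutive cytosolic HSP70 gene Hspa8 fell, together with its exchange factor gene Hspbp1 and the J-domain genes Dnaja1, Dnajb1, Dnajb12, Dnajc2, Dnajc7, Dnajc9 and Dnajc27. The CCT subunits, the HSP110 genes Hspa4, Hspa4l and Hsph1 and the mitochondrial chaperonin genes were not called. In all, 8 of 68 tested members were higher and 9 lower in edgeR, which is 25% and near the 23.3% of all genes. The changes of called members ran from a rise of 31.1% in Dnajc12 to Dnajb1, which fell by 13.6%. The median log2 fold change of the 68 was -0.02, beside 0.00 over all genes. Groups did not overlap in 30 members (44.1%), against 36.3% of all genes, and in 15 of the 17 called members, the exceptions being Dnajb12 and Hsf2. The counts changed when 1 library was left out. They were 4 higher and 8 lower without vehicle library 1, 9 and 7 without vehicle library 2, and 5 and 3 without vehicle library 3. Without RGFP966 libraries 1, 2 and 3 they were 3 and 5, 3 and 10, and 6 and 3. Calls over all genes also fell in these smaller fits, from 1543 higher and 1602 lower to 1238 to 1385 higher and 1116 to 1484 lower. Under upper-quartile scaling the member counts were 13 and 5, where the split of all called genes also moved from 49.1% to 59.1% higher, while the Wald test of DESeq2 gave 5 and 6. Hsp90aa1, Dnajb1 and Dnajc2 were called in all 15 alternatives tried, and the other 14 lost their call in at least 1; no called member changed direction in any of them.

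**Figure D1:**
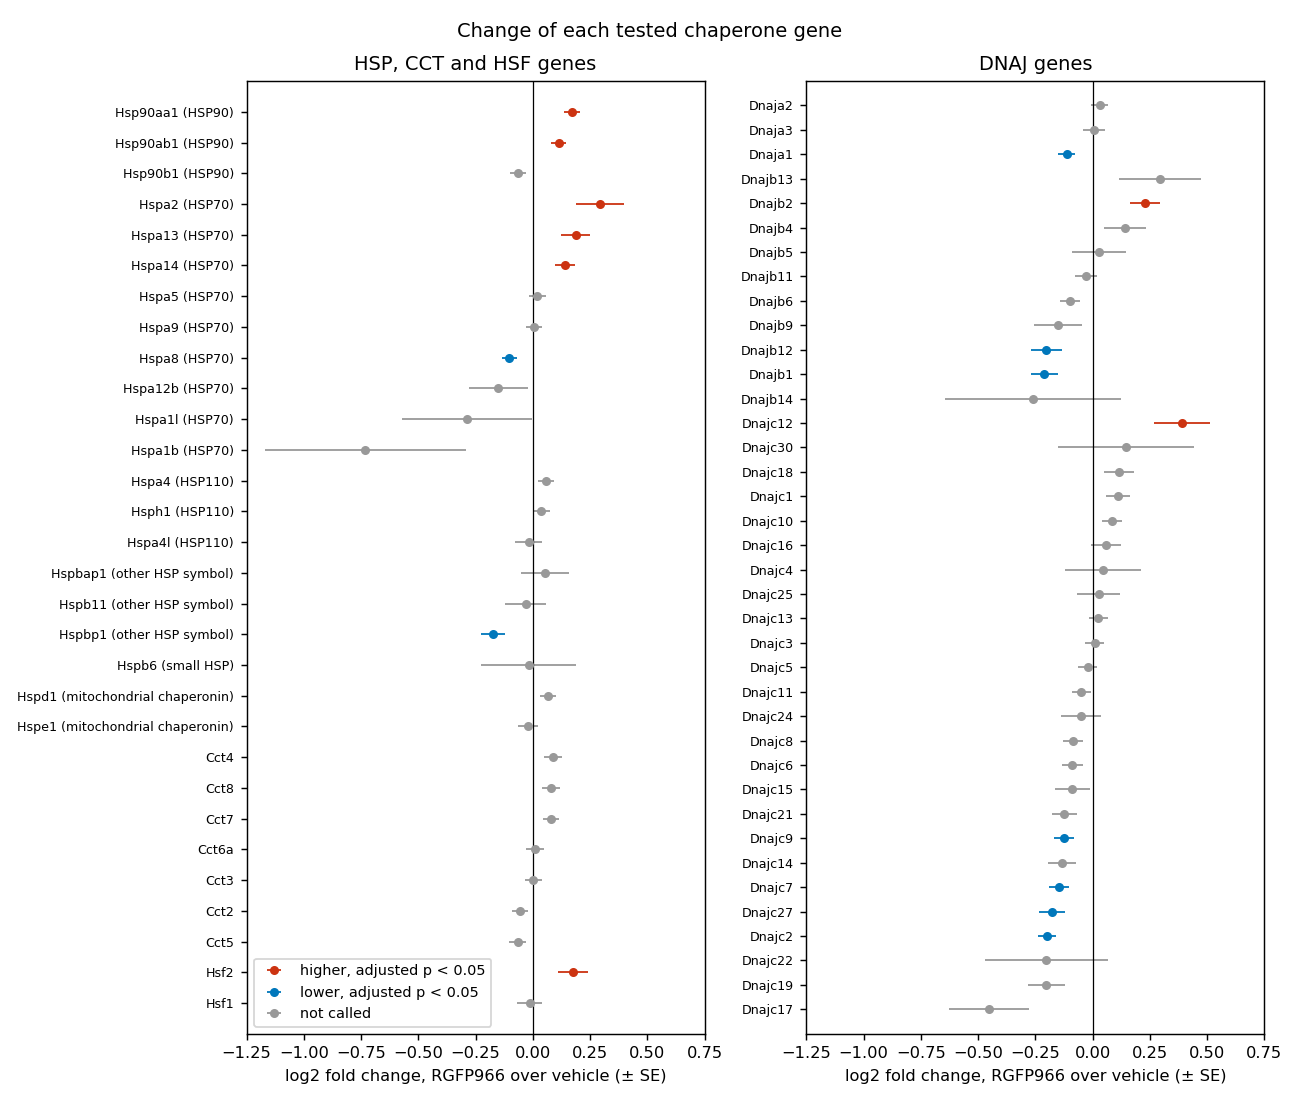
Log2 fold change (RGFP966 over vehicle, with its standard error) of each of the 68 tested members, with HSP, CCT and HSF genes on the left and J-domain genes on the right; red and blue mark genes called higher and lower. Most points lie close to 0, the called J-domain genes lie mostly to the left, and the widest error bar among HSP genes belongs to Hspa1b, which is barely expressed.

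The level of each gene, measured as CPM per kilobase of its principal annotated transcript, spanned a steep range in vehicle cells. Hsp90ab1, the constitutive cytosolic HSP90, came first at 1631 ± 17.8 (SD, n = 3), followed by Hspa8 at 1249 ± 23.1, Hspd1, which encodes HSP60, at 663 ± 12.9, and Hsp90aa1, the inducible HSP90 form, at 500.3 ± 10.5. Cct5 was next at 480.3 ± 11.6. Neighbours in this order lay further apart than their SDs added, except Hsp90aa1 and Cct5. With RGFP966 the order of the leading genes was unchanged, at 1763 ± 62 for Hsp90ab1, 1163 ± 36.9 for Hspa8, 693 ± 16.4 for Hspd1, 564 ± 16.9 for Hsp90aa1 and 459 ± 18.9 for Cct5. Then came Cct2 at 418 ± 3.2, the HSP10 gene Hspe1 at 336 ± 28.5 and the mitochondrial HSP70 gene Hspa9 at 280.5 ± 7.98 CPM per kilobase in vehicle. The endoplasmic reticulum chaperone genes Hsp90b1, encoding GRP94, and Hspa5, encoding BiP, held 191 ± 3.29 and 184 ± 2.73. The leading 6 genes kept their places when the union of all annotated exons was used as length, a choice added after seeing the data, while Cct3 and Cct7 went from places 9 and 11 to 16 and 17.

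**Figure D2:**
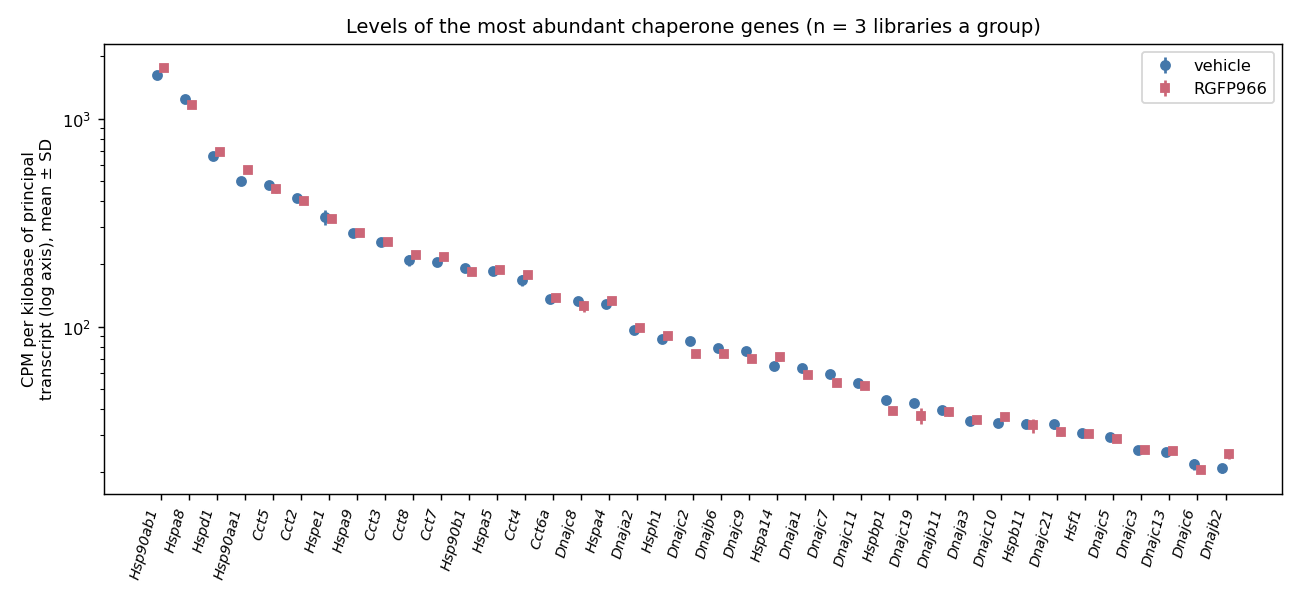
Levels of the most abundant members in CPM per kilobase of principal transcript on a log axis, as the mean with standard deviation of 3 libraries a group. Vehicle and RGFP966 symbols nearly coincide for most genes over a range from over 1000 down to about 20.

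The cytosolic HSP90 genes were the most abundant members called higher, while the similarly abundant Hspa8 was called lower, from 2990 to 2784 CPM. Hsp90aa1 (mm10 chromosome 12, 110690605 to 110702728, minus strand, ENSMUSG00000021270) measured 1616, 1681 and 1628 CPM in vehicle libraries 1 to 3 and 1819, 1913 and 1816 CPM in RGFP966 libraries 1 to 3. All treated libraries lay above all vehicle libraries. The log2 fold change was 0.17 ± 0.03 (SE), a rise of 12.7% (edgeR adjusted p = 1.44e-04). Hsp90ab1 (chromosome 17, 45567775 to 45573271, minus strand, ENSMUSG00000023944) measured 4097, 4074 and 4161 CPM in vehicle and 4421, 4609 and 4299 CPM with RGFP966, again without overlap (log2 fold change 0.11 ± 0.03, adjusted p = 0.0122). Its call was lost without RGFP966 library 1 (adjusted p = 0.0749) or 2 (0.109). Summed, the pair went from 5712, 5755 and 5789 CPM to 6239, 6522 and 6115 CPM. Of the Hsp90aa1 sequence, 47.5% of 50-base words also occur in other annotated transcripts, mostly the predicted gene Gm12346, so its count could have been split, whereas for Hsp90ab1 the share was 3.4%. Hsp90b1, the HSP90 of the endoplasmic reticulum, measured 550.0, 532 and 539 CPM in vehicle and 518, 522 and 509.7 CPM with RGFP966. Its log2 fold change of -0.06 ± 0.04 was not called (edgeR adjusted p = 0.201), although all its treated libraries lay below its vehicle libraries.

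Among HSP70 genes, the most abundant one fell while less abundant ones rose. Hspa8 (chromosome 9, 40800984 to 40810087, plus strand, ENSMUSG00000015656) encodes HSC70, the constitutive cytosolic HSP70. It measured 2982, 3048 and 2938 CPM in vehicle and 2782, 2874 and 2697 CPM with RGFP966, without overlap (log2 fold change -0.10 ± 0.03, edgeR adjusted p = 0.023). The call was narrow: it was lost without any 1 of the vehicle libraries (0.0728, 0.0606 and 0.0511 without libraries 1, 2 and 3), without RGFP966 library 1 (0.111) or 3 (0.199), and under upper-quartile scaling (0.0768). The log2 fold change was -0.10, -0.09 and -0.11 without vehicle libraries 1, 2 and 3, and -0.10 and -0.07 without RGFP966 libraries 1 and 3. Those fits also hold fewer libraries. Pseudogenes and other transcripts share 39.4% of the Hspa8 50-base words.

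Hspa14 (chromosome 2, 3488850 to 3512814, minus strand, ENSMUSG00000109865), which encodes the HSP70 of the ribosome-associated complex, measured 116, 118 and 113 CPM in vehicle and 122, 129 and 131 CPM with RGFP966 (log2 fold change 0.14 ± 0.04, edgeR adjusted p = 0.0152). Hspa13, whose product is a microsomal HSP70 relative, measured 39.8, 43.1 and 45.8 CPM and then 49.97, 47.7 and 48.9 CPM, a change of 0.19 ± 0.06 (adjusted p = 0.0236). Hspa2, best known from the testis, measured 13.04, 13.3 and 14.3 CPM and then 16.1, 17.9 and 15.9 CPM, a change of 0.29 ± 0.10 (adjusted p = 0.0321). In each of these the groups did not overlap. The calls were nonetheless lost in some fits that left out 1 library and so hold fewer. That of Hspa14 was lost without vehicle library 3 (0.0588), RGFP966 library 2 (0.059) or 3 (0.0773), at a log2 fold change of 0.13 in each. That of Hspa13 was lost without vehicle library 1 (0.16), RGFP966 library 1 (0.0982) or 3 (0.0584) and by DESeq2 (0.0668). That of Hspa2 was lost without vehicle library 1 (0.0956) or 2 (0.0831), RGFP966 library 1 (0.0553) or 2 (0.15), with no filter on low counts (0.052) and by DESeq2 (0.0807).

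The organelle HSP70 genes Hspa5 and Hspa9 hardly differed between groups, unlike the microsomal relative Hspa13 above. Hspa5, encoding the endoplasmic reticulum chaperone BiP, measured 672, 689 and 670.5 CPM in vehicle and 672, 698 and 690.3 CPM with RGFP966 (log2 fold change 0.02 ± 0.04, edgeR adjusted p = 0.739). Hspa9, encoding mitochondrial mortalin, stood at a log2 fold change of 0.00 ± 0.04 (adjusted p = 0.956) at a level of 855 CPM in vehicle. Both had a standard error of 0.04, while the called change of Hsp90aa1 was 0.17. Hspa12b, a distant relative, measured 10.4 and 9.38 CPM (log2 fold change -0.15 ± 0.13, adjusted p = 0.438), and Hspa1l 2.12 and 1.73 CPM, with 71.9% of its exons overlapped by Gm10501 on the opposite strand.

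The HSP110 genes, whose products are exchange factors for HSP70, were not called in edgeR, and 0 of the 3 had an unadjusted p under 0.05 or a call in DESeq2 or limma-voom. Hspa4 measured 589, 582 and 606 CPM in vehicle and 617, 634 and 599.5 CPM with RGFP966 (0.06 ± 0.04, adjusted p = 0.258). Hsph1 changed by 0.04 ± 0.04 (adjusted p = 0.53) and Hspa4l by -0.02 ± 0.06 (adjusted p = 0.87). Hspbp1, a different exchange factor gene, did fall: it measured 69.5, 69.1 and 73.1 CPM in vehicle and 62.3, 63.05 and 62.2 CPM with RGFP966 (log2 fold change -0.17 ± 0.05, adjusted p = 0.0109), with all treated libraries below all vehicle libraries. Its call was lost without vehicle library 3 (0.0796) or RGFP966 library 3 (0.0533). Hspbap1 and Hspb11, which share the prefix only, had log2 fold changes of 0.05 (adjusted p = 0.78) and -0.03 (adjusted p = 0.848).

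**Figure D3:**
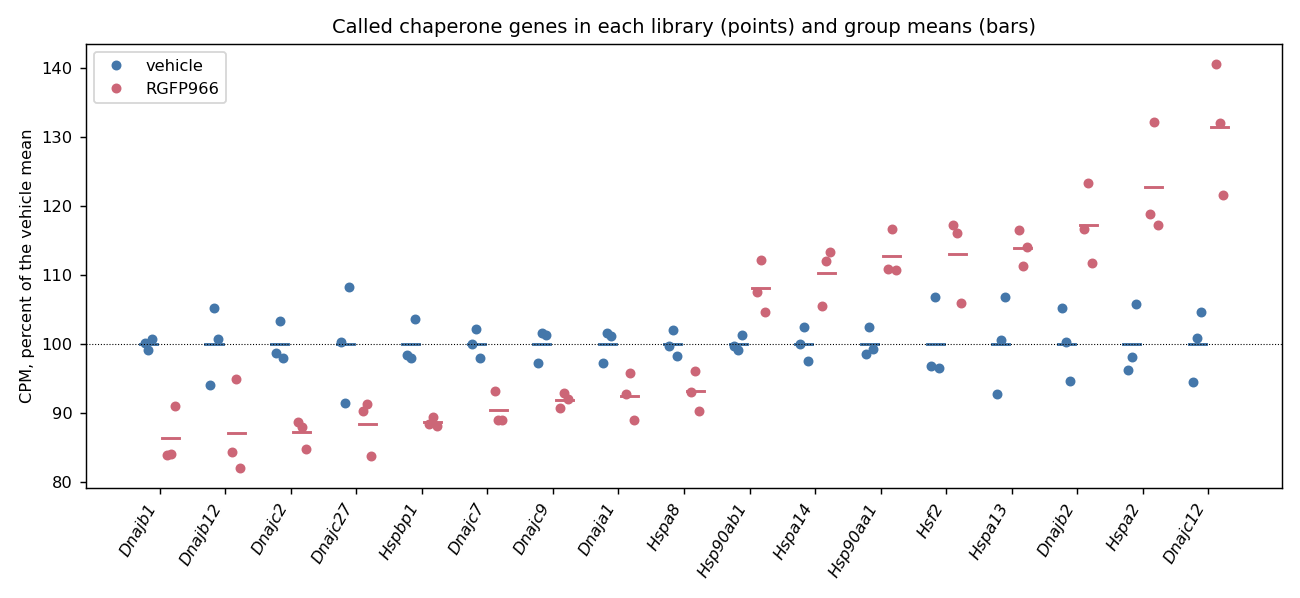
CPM of the 17 called members in each library, as a percentage of the vehicle mean of that gene, with horizontal bars at group means, ordered from the largest fall (Dnajb1) to the largest rise (Dnajc12). Treated and vehicle points are apart in every gene other than Dnajb12 and Hsf2.

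The inducible HSP70 genes Hspa1a and Hspa1b and the small HSP gene Hspb1 were nearly silent in both groups. Hspa1b had counts of 13, 18 and 13 reads in vehicle libraries 1 to 3 and 5, 10 and 8 reads in RGFP966 libraries 1 to 3, and its near-identical neighbour Hspa1a had 0, 0 and 1 and 5, 0 and 6 reads. Hspa1b was tested and not called (log2 fold change -0.73 ± 0.44, edgeR adjusted p = 0.245), and Hspa1a was below the filter. They share 62.3% of the Hspa1b 50-base words, so reads could be assigned to either or to none, and with the pair summed the log2 fold change was -0.21 (adjusted p = 0.758). Hspb1, encoding HSP25, had 3, 0 and 2 reads in vehicle and 3, 3 and 2 in RGFP966 libraries, with 50.1% of its words shared, and Hspb2 and Hspb7 had 0 reads in all libraries. Hspb6 was the small HSP that passed the filter, at 3.45 and 3.40 CPM (log2 fold change -0.02 ± 0.21, adjusted p = 0.963). In all, 6 of the 21 untested members had 0 reads in every library (Dnajb3, Dnajb8, Dnajc5b, Dnajc5g, Hspb2 and Hspb7), where a count of 0 allows up to 0.182 to 0.232 CPM, and the highest count of any untested member was 15 reads.

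Of the 6 Hsf symbols, Hsf1 and Hsf2 passed the filter. Hsf1, the main factor of the heat shock response, measured 65.2, 60.3 and 66.4 CPM in vehicle and 64.7, 62.5 and 62.8 CPM with RGFP966 (log2 fold change -0.01 ± 0.05, edgeR adjusted p = 0.894). Hsf2, a related factor tied to development, measured 37.95, 41.9 and 37.9 CPM and then 46.00, 45.5 and 41.5 CPM (log2 fold change 0.17 ± 0.07, adjusted p = 0.0471). RGFP966 library 3 lay below the highest vehicle library, so the groups overlapped. The Hsf2 call did not hold without vehicle library 1 (0.143) or 3 (0.146), without RGFP966 library 1 (0.189) or 2 (0.138), with no filter on low counts (0.072), by DESeq2 (0.113) or in limma-voom (0.0506). Hsf3, Hsf4, Hsf5 and Hsf2bp did not pass the filter.

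Heat shock elements were looked for because the members that rose, fell or stayed silent include well-known HSF1 targets. The letters GAANNTTC and TTCNNGAA (each its own reverse complement, so both strands are covered, and allowed to overlap each other) were searched in the 250 bases before each start in the RefSeq promoter table (GRCm38.p6), which held 72 of the 89 members. Of those, 18 (25%) had a match, against 14.5% of the 27025 genes in the table, and 3 (Hspd1, Hspe1 and Dnajb6; 4.17% against 0.514%) had matches that overlap into a longer array. Among called members, 2 of the 7 matched genes that fell had one (Dnaja1 and Dnajc27) and 0 of the 4 matched genes that rose. Hsp90aa1, Hsp90ab1, Hspa13 and Dnajc12, which rose, and Hspa8 and Dnajc2, which fell, were not searched. Among members not called, 10 of 43 had one. The windows below show 30 bases around the matches, in capitals, read along each gene's own strand: the array that Hspe1 shares with Hspd1 (chr1:55088053-55088082), the array of Dnajb6 (chr5:29735843-29735872), the match of the silent Hspa1b (chr17:34959324-34959353), the matches of the silent Hspb1 (chr5:135887791-135887820 and chr5:135887811-135887840), those of the lowered genes Dnaja1 (chr4:40722333-40722362) and Dnajc27 (chr12:4082350-4082379), and those of the uncalled Hsph1 (chr5:149636351-149636380), Cct2 (chr10:117063399-117063428) and Cct5 (chr15:31601862-31601891).
Hspe1: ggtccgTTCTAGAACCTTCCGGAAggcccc
Dnajb6: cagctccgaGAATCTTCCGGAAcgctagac
Hspa1b: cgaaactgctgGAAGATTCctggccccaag
Hspb1 distal: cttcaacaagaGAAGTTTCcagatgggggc
Hspb1 proximal: agatgggggcaGAACCTTCctggccccgcc
Dnaja1: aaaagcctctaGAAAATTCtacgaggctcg
Dnajc27: cacccatcggtGAAGATTCcaggaaaaaaa
Hsph1: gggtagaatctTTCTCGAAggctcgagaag
Cct2: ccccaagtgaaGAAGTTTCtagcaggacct
Cct5: acagcggccgaTTCCAGAAgctactctgcg

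The Hspe1 array runs over 18 bases, from 89 to 72 bases before the Hspe1 start, and Hspd1 reads the same bases on the other strand. Hspa1b and Hspa1a have the same 30-base window, with the match 104 to 97 bases before the start. A match is a description of letters, not a site shown to be bound. The Hspa1b promoter is shown whole for its 250 bases before the start (chr17:34959239-34959488, minus strand), with the match in capitals.
Hspa1b promoter: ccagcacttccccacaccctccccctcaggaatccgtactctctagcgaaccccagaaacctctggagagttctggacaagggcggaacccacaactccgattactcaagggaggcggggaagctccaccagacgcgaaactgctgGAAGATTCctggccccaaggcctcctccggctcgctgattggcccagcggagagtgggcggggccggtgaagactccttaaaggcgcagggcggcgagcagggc

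J-domain genes formed the largest family, with 45 members, of which 38 were tested. In edgeR 7 were lower and 2 higher (23.7% called, against 23.3% of all genes), and their median log2 fold change was -0.05. The summed level of the Dnaja, Dnajb and Dnajc genes was 3174, 3177 and 3225 CPM in vehicle and 3077, 3117 and 3055 CPM with RGFP966, all treated libraries being below all vehicle libraries.

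Dnajc2 (chromosome 5, 21757267 to 21785251, minus strand, ENSMUSG00000029014) encodes the J-protein of the ribosome-associated complex (also called MPP11 or ZRF1), the partner of the Hspa14 product. It measured 179, 188 and 178 CPM in vehicle and 161, 159.7 and 154 CPM with RGFP966, well apart (log2 fold change -0.20 ± 0.04, edgeR adjusted p = 2.14e-04). Dnajb1 (chromosome 8, 83608193 to 83612653, plus strand, ENSMUSG00000005483), the classical inducible HSP40 gene, measured 53.9, 53.4 and 54.2 CPM and then 45.2, 45.2 and 48.99 CPM (log2 fold change -0.21 ± 0.06, adjusted p = 0.00644). The vehicle libraries of Dnajb1 lay within 1 CPM of each other, above every treated library. Dnaja1, which encodes a farnesylated cytosolic HSP40, measured 347, 362 and 360.5 CPM and then 331, 341 and 317 CPM, a change of -0.11 ± 0.04 (adjusted p = 0.0222), which was not called without vehicle library 3 (0.0929), without RGFP966 library 1 (0.0692) or 3 (0.217) or under upper-quartile scaling (0.0685). Dnajc7, whose product passes clients between HSP70 and HSP90, measured 138, 141 and 136 CPM and then 129, 123 and 123 CPM, a change of -0.15 ± 0.04 (adjusted p = 0.00928), with 0.0694 without RGFP966 library 3. Smu1 overlaps 10.8% of the Dnaja1 exons and Nkiras2 9.1% of those of Dnajc7, both on the opposite strand, and 20.6% of the Dnaja1 words are shared.

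The remaining lowered J-domain genes had narrower calls. Dnajc9, which encodes a histone chaperone, measured 121, 126 and 126 CPM in vehicle and 112, 115 and 114 CPM with RGFP966 (log2 fold change -0.12 ± 0.04, edgeR adjusted p = 0.0324). It was below 0.05 in only 5 of 15 alternatives, its highest values being 0.116 without RGFP966 library 1 and 0.11 without vehicle library 3; it was 0.069 without vehicle library 2 and 0.054 and 0.101 without RGFP966 libraries 2 and 3. It was 0.0865 under upper-quartile scaling and 0.0829 by DESeq2. Dnajc27, which joins a J-domain to a small GTPase, measured 71.2, 64.9 and 76.8 CPM and then 64.1, 64.8 and 59.4 CPM, a change of -0.18 ± 0.06 (adjusted p = 0.0171), lost without vehicle library 3 (0.215) or RGFP966 library 3 (0.162) and by DESeq2 (0.0752). Dnajb12, whose product sits in the membrane of the endoplasmic reticulum, measured 40.6, 45.5 and 43.6 CPM and then 36.5, 41.03 and 35.5 CPM, with RGFP966 library 2 inside the vehicle range. Its change was -0.20 ± 0.07 (adjusted p = 0.0232), lost without vehicle library 2 (0.113) or 3 (0.0714), without RGFP966 library 1 (0.0997) or 3 (0.176), by DESeq2 (0.0862) and under upper-quartile scaling (0.0504).

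The J-domain genes that rose were expressed at modest levels. Dnajc12 measured 8.54, 9.12 and 9.47 CPM in vehicle and 12.7, 11.9 and 10.99 CPM with RGFP966 (log2 fold change 0.39 ± 0.12, edgeR adjusted p = 0.0142), the largest rise among called members; its product is known as a cochaperone of aromatic amino acid hydroxylases. Without vehicle library 1 its adjusted p was 0.0579, and without RGFP966 library 1 0.084. Dnajb2, encoding a ubiquitin-binding J-protein best known from neurons, measured 40.6, 38.6 and 36.5 CPM and then 44.98, 47.5 and 43.1 CPM, a change of 0.23 ± 0.07 (adjusted p = 0.00732), with 0.0502 without vehicle library 3 and 0.0555 without RGFP966 library 2. Of the 29 J-domain genes tested and not called, log2 fold changes ran from -0.45 (Dnajc17, at 6.20 CPM in vehicle, adjusted p = 0.0524) to 0.30 (Dnajb13, at 4.27 CPM, adjusted p = 0.249), both chosen as the ends of that range. The 5 most abundant of them by CPM were Dnaja2 (0.03), Dnajc13 (0.03), Dnajc5 (-0.02), Dnajc8 (-0.09) and Dnajc11 (-0.05), log2 fold changes with adjusted p of 0.613, 0.713, 0.768, 0.155 and 0.432. Dnaja2 encodes a cytosolic HSP40, Dnajc13 an endosomal protein, Dnajc5 the cysteine-string protein of vesicles, Dnajc8 a splicing-associated protein and Dnajc11 a mitochondrial outer membrane protein.

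No expressed CCT subunit was called. Of 9 Cct members, Cct6b, a testis form, and Cct8l1 were below the filter, and 0 of the 7 tested were called in edgeR, DESeq2 or limma-voom, with 3 at an unadjusted p under 0.05. Summed over the 7 and Tcp1, which encodes the alpha subunit, CCT transcripts measured 4454, 4706 and 4588 CPM in vehicle and 4577, 4714 and 4445 CPM with RGFP966, which overlap. Cct5 measured 871, 913 and 885 CPM in vehicle and 854, 883 and 813 CPM with RGFP966 (-0.07 ± 0.04, adjusted p = 0.192). Cct2 measured 819, 824 and 811 CPM and then 789, 798 and 771 CPM (-0.06 ± 0.03, adjusted p = 0.245), with no overlap although the test did not call it. Cct7 measured 489, 511 and 504 CPM and then 528, 538 and 524 CPM (0.08 ± 0.04, adjusted p = 0.106), likewise without overlap but on the higher side. Cct4 (0.09 ± 0.04, adjusted p = 0.107), Cct8 (0.08 ± 0.04, 0.137), Cct3 (0.00 ± 0.04, 0.976), Cct6a (0.01 ± 0.04, 0.905) and Tcp1 (-0.04 ± 0.04, 0.457) overlapped between groups. Cct4, Cct7 and Cct8 were called higher under upper-quartile scaling (0.0333, 0.0252 and 0.046). Cct4 and Cct7 were also called with total count alone (0.0429 and 0.0377) and at a mean of at least 5 CPM (0.0447 and 0.0362), and Cct4 and Cct8 without vehicle library 2 (0.0318 and 0.0163), so these calls turned on the scaling, the filter and 1 library. Per kilobase of principal transcript in vehicle, Cct6a held 136, Cct4 167, Cct7 206, Cct8 208 and Tcp1 253.5. Cct3 held 256, Cct2 418 and Cct5 480.3 CPM per kilobase, although the protein ring holds its subunits in equal number. On this length Cct7 and Cct8 did not differ beyond their spread, and neither did Tcp1 and Cct3 (SDs of 6.36 and 6.90). With the union of all annotated exons as length the order changed, Cct7 being lowest at 74.0 and Cct8 at 161.2.

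The mitochondrial chaperonin genes lie head to head on chromosome 1 and share the promoter whose element array is shown above. Hspd1 (chromosome 1, 55077835 to 55088243, minus strand, ENSMUSG00000025980) measured 1570, 1620 and 1627 CPM in vehicle and 1664, 1724 and 1649 CPM with RGFP966 (log2 fold change 0.06 ± 0.03, edgeR adjusted p = 0.178) with no overlap between groups. Hspe1 (chromosome 1, 55088132 to 55091307, plus strand, ENSMUSG00000073676) measured 243, 285 and 252 CPM and then 259, 258 and 252 CPM, a change of -0.02 ± 0.04 (adjusted p = 0.774). Neither was called, although Hspd1 passed under upper-quartile scaling (0.0454). Both have processed pseudogenes, and 42.1% and 22.8% of their words are shared.

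Ratios of read counts within a library do not depend on scaling between libraries, and 8 of them, chosen after the values were seen, were compared. The ratio of Hsp90ab1 to Hspa8 was 1.37, 1.34 and 1.42 in vehicle libraries and 1.59, 1.6 and 1.59 in RGFP966 libraries. That of Hsp90aa1 to Hspa8 was 0.542, 0.551 and 0.554 and then 0.654, 0.666 and 0.673. The ratio of Hspa14 to its partner Dnajc2 was 0.645, 0.632 and 0.634 in vehicle and 0.757, 0.81 and 0.851 in RGFP966 libraries. In all 3 the groups were apart, with mean ratios 1.16, 1.21 and 1.27 times those of vehicle. These pair genes called higher with genes called lower, so their separation restates those calls and is given as a description. An exact permutation test gave a two-sided p of 0.1 for each. That is the smallest value that 3 against 3 libraries allow, so the test cannot decide the question. Groups overlapped for Hsp90aa1 over Hsp90ab1, Dnaja1 over Hspa8, Dnajb1 over Hspa8, Hspd1 over Hspe1 and Hsf1 over Hsf2. The ratio of Dnaja1 to Hspa8, both of which fell, was 0.116, 0.119 and 0.123 in vehicle and 0.119, 0.119 and 0.118 in RGFP966 libraries.

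**Figure D4:**
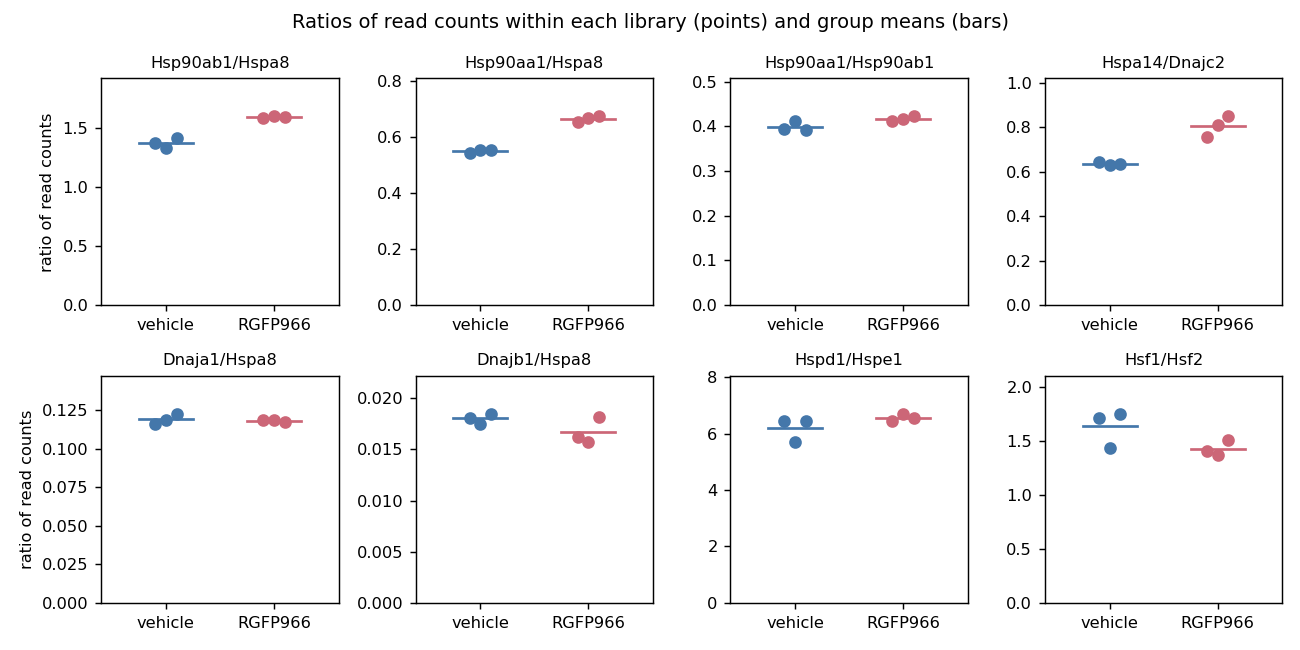
Ratios of read counts of gene pairs within each of the 6 libraries (points) with group means (bars), on axes that start at 0. The ratios of both HSP90 genes to Hspa8 and of Hspa14 to Dnajc2 are higher in all RGFP966 libraries, and the other 5 overlap.

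Partner genes outside the symbol rule were listed by function, with 86 genes of which 83 were tested. In edgeR 12 were higher and 21 lower (39.8% called, against 23.3% of all genes; 13 and 12 without RGFP966 library 3). The lists were chosen with earlier results of these data known. Among the 19 HSP90 cochaperones, 5 rose and 4 fell (47.4%, against 23.3% of all genes). Over all genes the share was 35.7% at 100 CPM or more, 27.0% at 10 to 100 CPM and 10.7% below 10 CPM. All of these cochaperones but Aarsd1, and most tested partners, lay at 10 CPM or more. Fkbp5, an immunophilin of steroid receptor complexes, rose from 123 ± 5.27 to 143 ± 1.38 CPM (SD, n = 3; log2 fold change 0.22 ± 0.04, adjusted p = 1.40e-04). Ppid, the cyclophilin of the same complexes, rose by 0.18 on the log2 scale (adjusted p = 0.0025) and Unc45a, a myosin-directed cochaperone, by 0.24 (adjusted p = 0.00204). Cdc37, which brings kinases to HSP90, fell from 337 ± 7.58 to 303 ± 6.47 CPM (-0.15 ± 0.04, adjusted p = 0.00143). Ahsa1, the activator of the HSP90 ATPase, changed by -0.13 on the log2 scale (adjusted p = 0.0214), and Pih1d1, of the R2TP complex, by -0.27 (adjusted p = 0.0109). The call of Ahsa1 was lost without vehicle library 1 (0.0973) or 2 (0.0672), RGFP966 library 1 (0.113) or 3 (0.061), under upper-quartile scaling (0.0637) and by DESeq2 (0.0581), and that of Pih1d1 without vehicle library 1 (0.126) or RGFP966 library 2 (0.0976).

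Of the 12 HSP70 exchange factors and adaptors, Bag1 fell by 0.18 on the log2 scale (edgeR adjusted p = 0.00312), Bag6 changed by -0.13 (adjusted p = 0.0121) and Hyou1, the exchange factor of the endoplasmic reticulum, by 0.12 (adjusted p = 0.0278), while 9 were not called (3 of 12 called is 25%, against 23.3% of all genes). The calls of Bag6 and Hyou1 were lost without vehicle library 3 (0.158) and RGFP966 libraries 1 (0.0544) and 3 (0.0581) for Bag6, and without vehicle library 2 (0.146) and RGFP966 libraries 1 (0.21) and 3 (0.0756) for Hyou1. Among 10 tested CCT partners, 2 were lower and 0 higher in edgeR, with 4 at an unadjusted p under 0.05 in either direction, 1 called in DESeq2 and 2 in limma-voom (20% called in edgeR, against 23.3% of all genes). The prefoldin subunit gene Pfdn5, whose product delivers actin and tubulin chains to CCT, fell from 130.2 ± 5.3 to 110.2 ± 6 CPM (-0.24 ± 0.05, adjusted p = 6.63e-05). Txndc9, a phosducin-like CCT cofactor, changed by -0.14 on the log2 scale (adjusted p = 0.0367), above 0.05 in 9 of its 15 alternatives, among them 0.129 and 0.111 without vehicle libraries 1 and 2, 0.0675 and 0.2 without RGFP966 libraries 1 and 2, 0.0917 under upper-quartile scaling and 0.113 by DESeq2.

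CCT clients and tubulin folding cofactors were the list with the largest share of calls. Of 13 genes, 8 were lower and 2 higher in edgeR (76.9%, against 23.3% of all genes). Over all genes the share was 35.7% at 100 CPM or more, 27.0% at 10 to 100 CPM and 10.7% below 10 CPM. This list spans those levels and was chosen with earlier results of these data known. Actg1, encoding gamma-actin, fell from 784 ± 25.9 to 624 ± 28.2 CPM (-0.33 ± 0.04, edgeR adjusted p = 8.27e-10), Tubb4b by 0.26 (adjusted p = 1.38e-07) and Tuba1c by 0.18 (adjusted p = 3.09e-04) on the log2 scale, while Tuba1a rose by 0.29 (adjusted p = 1.66e-07). Actb, encoding beta-actin, rose by 0.09 (adjusted p = 0.0454), a call lost without vehicle library 1 (0.114) or 3 (0.141) and RGFP966 library 1 (0.165) or 2 (0.23), and with no filter on low counts (0.0604). These actin and tubulin genes share 37.4%, 41.3%, 52.7%, 75.5% and 9.1% of their words with other annotated genes, in the order named. For Actg1, Tubb4b, Tuba1c and Tuba1a the gene sharing most is Gm12715, Tubb4b-ps1, Tuba1b and Tuba1c, so reads may be split among them, and for Actb it is Lrrc58.

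Among mitochondrial and other chaperones and proteases, 1 of 17 tested rose and 3 fell (23.5%, against 23.3% of all genes). Timm13 fell from 81.3 ± 4.42 to 67.5 ± 1.68 CPM (-0.27 ± 0.05, edgeR adjusted p = 8.41e-05), and Timm10, another small chaperone of the intermembrane space, rose by 0.24 on the log2 scale (adjusted p = 0.00769; 0.128 without vehicle library 2). Sec61b, of the translocon, fell by 0.21 (adjusted p = 6.83e-04). Afg3l2, of a mitochondrial protease, changed by -0.14 on the log2 scale (adjusted p = 0.0123), lost without vehicle library 3 (0.0753) or RGFP966 library 2 (0.0993) or 3 (0.0874).

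Among 12 regulators of heat shock factors and further HSF1 targets, 3 rose and 2 fell (41.7%, against 23.3% of all genes). All of them but Atf3 lay at 10 CPM or more, where the shares over all genes were the higher ones given above. Atf3, a stress-induced factor that answers to several pathways, went from 0.196, 0.429 and 0.256 CPM in vehicle to 1.62, 1.32 and 1.07 CPM with RGFP966 (log2 fold change 2.14 ± 0.46, edgeR adjusted p = 3.89e-04), a large ratio at a very low level. Its reads numbered 3, 7 and 4 in vehicle and 22, 17 and 16 with RGFP966. It passed the filter on low counts only through the RGFP966 libraries, so its call is a description and adds no support to the count of genes that rose. Gadd45b, another stress-induced gene, went from 12.8, 11.1 and 11.8 to 20.1, 17.5 and 19.6 CPM (0.68 ± 0.10, adjusted p = 1.27e-06), and Hmox1, encoding heme oxygenase 1, rose by 0.24 on the log2 scale (adjusted p = 0.00176). Hsbp1, whose product binds and restrains HSF1, changed by -0.15 on the log2 scale (adjusted p = 0.00957; 0.097 without RGFP966 library 3), and Cacybp fell by 0.16 (adjusted p = 0.00244).

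Calls were also set against level, since abundant genes are tested with less error. Of the 31 tested members at a mean of 100 CPM or more, 3 were higher and 5 lower (25.8%), where 35.7% of all genes at that level were called in edgeR, 354 higher and 583 lower. Between 10 and 100 CPM, 9 of 27 members were called (33.3%, against 27.0% of all genes), and of the 10 below 10 CPM 0 were called in edgeR, DESeq2 or limma-voom, with 1 at an unadjusted p under 0.05 (10.7% of all genes at that level were called).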

How the data were processed

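The authors deposited raw read counts for 51912 Ensembl mouse gene IDs, 1 column per library. The submitters' processing notes name HTSeq 0.6.0, HISAT2 2.1.0, Bowtie2 2.2.3, TopHat2, CASAVA and build mm10. The role of each tool, the annotation and any use of strand in counting are not given in the sources used, so overlapping genes on opposite strands cannot be told apart. Symbols were found for 51633 IDs. Positions (counted from 1), lengths and shared 50-base words came from GENCODE M21, on the assembly of mm10.

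All genes were fitted together in edgeR 4.0.16 (R 4.3.3): filterByExpr defaults, trimmed mean of M values (TMM) factors, group as the only term, robust quasi-likelihood F test, Benjamini-Hochberg adjustment over all genes tested. It was tested on simulated data. A standard error (SE) was taken as the absolute log2 value divided by the root of F. The alternatives were a replicate block, scaling by upper quartile, by DESeq2 1.42.0 size factors or by total alone, no filter, a 5 CPM minimum, the DESeq2 Wald test, limma-voom (limma 3.58.1), leaving out each library, and Hspa1a with Hspa1b summed. Members and lists were chosen with earlier results of these data known. The text names all Cct and Hsf genes, HSP genes at a mean of 1 CPM or more and a fixed set of 13 well-known members, called J-domain genes with the 5 most abundant others, and from each partner list up to 3 called genes a direction by smallest p. No library was a copy: pairs within a group differed by 2.22 to 3.55 times counting error (chi-square per degree of freedom). Limits on counts of 0 (3 counts) cover counting error only.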

Additional observations from a re-analysis of the deposited data

How the results depend on the processing

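Counts of called members moved most. From 8 higher and 9 lower, they went to 13 and 5 under upper-quartile factors and to 5 higher in the DESeq2 Wald test, and they ran from 3 to 9 higher and 3 to 10 lower when 1 library was left out. Over all genes, leaving out 1 library gave 1238 to 1385 higher and 1116 to 1484 lower, from 1543 and 1602. Partner genes went from 12 higher and 21 lower to 8 to 13 higher and 12 to 18 lower when 1 library was left out. No called member reversed. Values near 0 that changed sign, none of them called, were Cct3 (0.00 with no filter on low counts), Hsf1 (0.01 under upper-quartile factors, 0.00 with total count alone and 0.00 at a minimum of 5 CPM), and Hspa4l, Hspb6 and Hspe1 (0.01, 0.00 and 0.00 under upper-quartile factors). With 1 library left out, log2 fold changes ran from -0.02 to 0.02 for Cct3, -0.02 to 0.04 for Cct6a, -0.06 to 0.02 for Hsf1, -0.07 to 0.03 for Hspa4l, -0.02 to 0.03 for Hspa9, -0.07 to 0.04 for Hspb11, -0.08 to 0.07 for Hspb6 and -0.06 to 0.05 for Hspe1. The causes were not tested. With the replicate number as a block, 8 members were higher and 11 lower, and 1667 of all genes were higher and 1763 lower. Deviations of same-numbered libraries correlated at -0.02, 0.13 and -0.01, and vehicle libraries 1 and 3 correlated best with another number, so the numbers were not taken as pairs. Depth limits genes of few counts: Hspa1b, at under 20 reads a library, had an SE of 0.44.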
